A study of Mus musculus with 206 samples.

Results

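H3K27ac, the acetylation of histone H3 at lysine 27 that marks active promoters and enhancers, was examined at 9 genes that encode subunits of the NMDA and AMPA glutamate receptors, in NeuN+ neuronal nuclei of the adult mouse brain. The genes were taken by name: Grin1, Grin2a, Grin2b, Grin2c and Grin3a for NMDA receptors, and Gria1, Gria2, Gria3 and Gria4 for AMPA receptors. Each of 4 brain regions had its own consensus list of acetylated regions in the mm10 build. A region was assigned to a gene if it lay inside the gene body, or if the nearest start site of a protein-coding gene was that gene's and lay within 100 kb. This gave 436 of the 108274 regions of the 4 lists: 87 of 18272 in the prefrontal cortex (PFC), 79 of 16201 in hippocampus, 46 of 13788 in hypothalamus and 224 of 60013 in striatum.

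The C57BL/6NTac mice, wild type and of both sexes, were exposed before and after birth to morphine (MOR) or saline (SAL) and challenged as adults with lipopolysaccharide (LPS), a bacterial cell wall component that provokes an immune response, or with saline. In the MOR-SAL and MOR-LPS groups the dams carried osmotic minipumps delivering morphine at 10 mg/kg/day and the pups were injected with morphine at 10 mg/kg, while SAL-SAL and SAL-LPS animals received saline by the same routes. All 4 groups were raised by drug-naive surrogate dams and shared the repeated pup injections, an adult injection, and collection of tissue 2 h after it. Each library came from about 10000 nuclei of 1 animal, and 172 of 174 were used. The double-saline controls had 8, 11, 8 and 10 libraries in PFC, hippocampus, hypothalamus and striatum, MOR-SAL had 9, 11, 12 and 7, SAL-LPS had 11, 12, 11 and 13, and animals with both exposures (MOR-LPS) had 14, 10, 10 and 15. Perinatal treatment was given to the dam, so litter and perinatal treatment cannot be told apart. PFC libraries were made with another kit than those of the other brain regions, so kit and brain region cannot be told apart in any comparison with PFC.

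NMDA and AMPA receptors are glutamate-gated cation channels built from 4 subunits each, and carry most of the fast excitatory transmission in the brain. NMDA receptors need GluN1 (Grin1), combined with GluN2 subunits (Grin2a to Grin2d) that set the kinetics and change during development, or with GluN3 subunits (Grin3a, Grin3b) that lower calcium entry. AMPA receptors are assembled from GluA1 to GluA4 (Gria1 to Gria4), and GluA2, after RNA editing, makes the channel nearly impermeable to calcium.

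The deposited lists hold peaks, not read counts, with 10811 to 143527 peaks per library and medians of 72928, 75966, 52991 and 57042 in PFC, hippocampus, hypothalamus and striatum. The 10000 peaks with the best -log10 p of a library, called its top list here, were also used alone, so that libraries of unequal length could be set side by side. Top-list peaks lay at 61.7%, 48.5%, 48.4% and 42.2% of 12 neuronal marker promoters on average in the same order, and at 0.0% to 0.505% of microglial ones. Astrocyte marker promoters were at 5.74% to 9.28%, those of oligodendrocyte precursors at 0.568% to 8.33%, and oligodendrocyte ones at 4.55% to 14.8%. The oligodendrocyte share was 8.33% to 100% in the 7 MOR-LPS females of the striatum. It also reached 100% in a SAL-SAL library of PFC and 91.7% in one of striatum. Striatal markers were at 23.6% in striatum and at 38.1% in PFC, hippocampal markers at 35.5% in hippocampus, cortical markers at 31.3% in PFC, and hypothalamic markers at 2.44% in hypothalamus, so the hypothalamic list was nearly absent where it defines the tissue and PFC libraries carried more of the striatal list than striatum libraries did. At least 1 comparison that leaves out PFC is given for every gene below. One PFC library of 4371 peaks was left out. The lists of 2 SAL-LPS males in hippocampus were identical and were counted once, and the peaks in the list of 1 MOR-LPS female in PFC carry another animal's name, so which animal these libraries came from is not certain.

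The promoters of 4 of the 9 genes were in the RefSeq promoter table (GRCm38.p6), from 250 bases before to 50 after the start site. They are shown because they span the range of acetylation described next. By top lists, Gria2 had a peak in 65.9% to 97.6% of the libraries of a brain region and Grin2c in 0.0% to 4.88%. Grin1 had one most often in PFC (71.4%) and Gria4 most often in hypothalamus (65.9%). Capitals mark matches to 9 short motifs, searched on both strands.
Gria2, chr3:80802786-80803085, minus strand: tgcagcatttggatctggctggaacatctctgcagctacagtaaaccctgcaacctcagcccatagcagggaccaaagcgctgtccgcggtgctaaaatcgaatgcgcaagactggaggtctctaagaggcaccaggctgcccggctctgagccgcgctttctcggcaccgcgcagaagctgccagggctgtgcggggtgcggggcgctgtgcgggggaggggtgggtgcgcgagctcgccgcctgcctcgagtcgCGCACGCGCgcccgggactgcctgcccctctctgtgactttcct
Grin1, chr2:25319138-25319437, minus strand: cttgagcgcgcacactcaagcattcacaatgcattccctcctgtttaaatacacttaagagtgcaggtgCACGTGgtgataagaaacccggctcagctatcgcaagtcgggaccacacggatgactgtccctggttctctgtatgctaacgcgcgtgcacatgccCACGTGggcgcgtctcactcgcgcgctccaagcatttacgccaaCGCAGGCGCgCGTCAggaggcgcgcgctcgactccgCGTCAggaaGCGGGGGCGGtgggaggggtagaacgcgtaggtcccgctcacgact
Gria4, chr9:4796185-4796484, minus strand: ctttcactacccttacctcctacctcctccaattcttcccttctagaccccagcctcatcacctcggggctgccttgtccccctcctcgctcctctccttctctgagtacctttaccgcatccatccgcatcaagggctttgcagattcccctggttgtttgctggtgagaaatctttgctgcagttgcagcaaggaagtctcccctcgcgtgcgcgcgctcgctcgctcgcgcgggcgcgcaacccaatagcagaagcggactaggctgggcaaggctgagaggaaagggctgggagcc
Grin2c, chr11:115267194-115267493, minus strand: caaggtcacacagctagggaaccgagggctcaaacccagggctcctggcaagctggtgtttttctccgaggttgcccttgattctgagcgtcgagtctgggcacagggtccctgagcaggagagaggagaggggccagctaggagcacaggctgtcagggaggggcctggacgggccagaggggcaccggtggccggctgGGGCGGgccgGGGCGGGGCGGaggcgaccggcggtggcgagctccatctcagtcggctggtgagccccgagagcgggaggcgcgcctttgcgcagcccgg

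All 4 promoters were richer in G and C (59.7% to 70.0%) than the median of 52.7% over the 32851 promoters of the table, and held 17 to 33 CpG dinucleotides against a median of 7. The Grin1 promoter had the most CpG and the most matches: 2 to CACGTG (in 7.15% of all promoters), 2 to TGACG, the half-site of the cAMP response element (20.8%), 1 to GGGCGG, the GC box (35.7%), 1 to the Egr1 motif GCGGGGGCG (2.91%), which overlapped that GC box, and 1 to the NRF1 motif GCGCNTGCG (6.31%). Gria2 held 1 match to the NRF1 motif, Grin2c held 3 GC boxes, and Gria4 held none of the 9 motifs. No match was found in the 4 promoters to the full cAMP response element TGACGTCA (1.79% of all promoters), TATAAA (13.6%), the AP-1 motif TGANTCA (7.81%) or the E-box CAGCTG (16.3%). GC content did not order the promoters by acetylation, since Grin2c, at 70.0%, had the most G and C and the fewest peaks.

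Promoter acetylation was compared between brain regions by rank. In each library, every one of 21829 protein-coding genes was given the highest -log10 p of the peaks within 1 kb of any of its start sites, or 0 without a peak, and ranked from 0 to 100. Gria2 and Gria1 stood highest, with mean ranks of 88.7 to 96.9 and 87.2 to 94.0, followed by Grin2b at 83.7 to 91.3. Grin2c, at 32.1 to 41.8, and Grin3a in PFC, at 33.2, stood lowest, and Grin3a had 44.3 in striatum and 48.5 in hippocampus. Grin1, Grin2a and Gria3 lay between. Gria4 lay between at 75.0 to 84.0 in the other brain regions and reached 88.3 in hypothalamus, above Grin2b there. It was among these 4 genes and Grin3a that brain regions differed most.

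**Figure D1:**
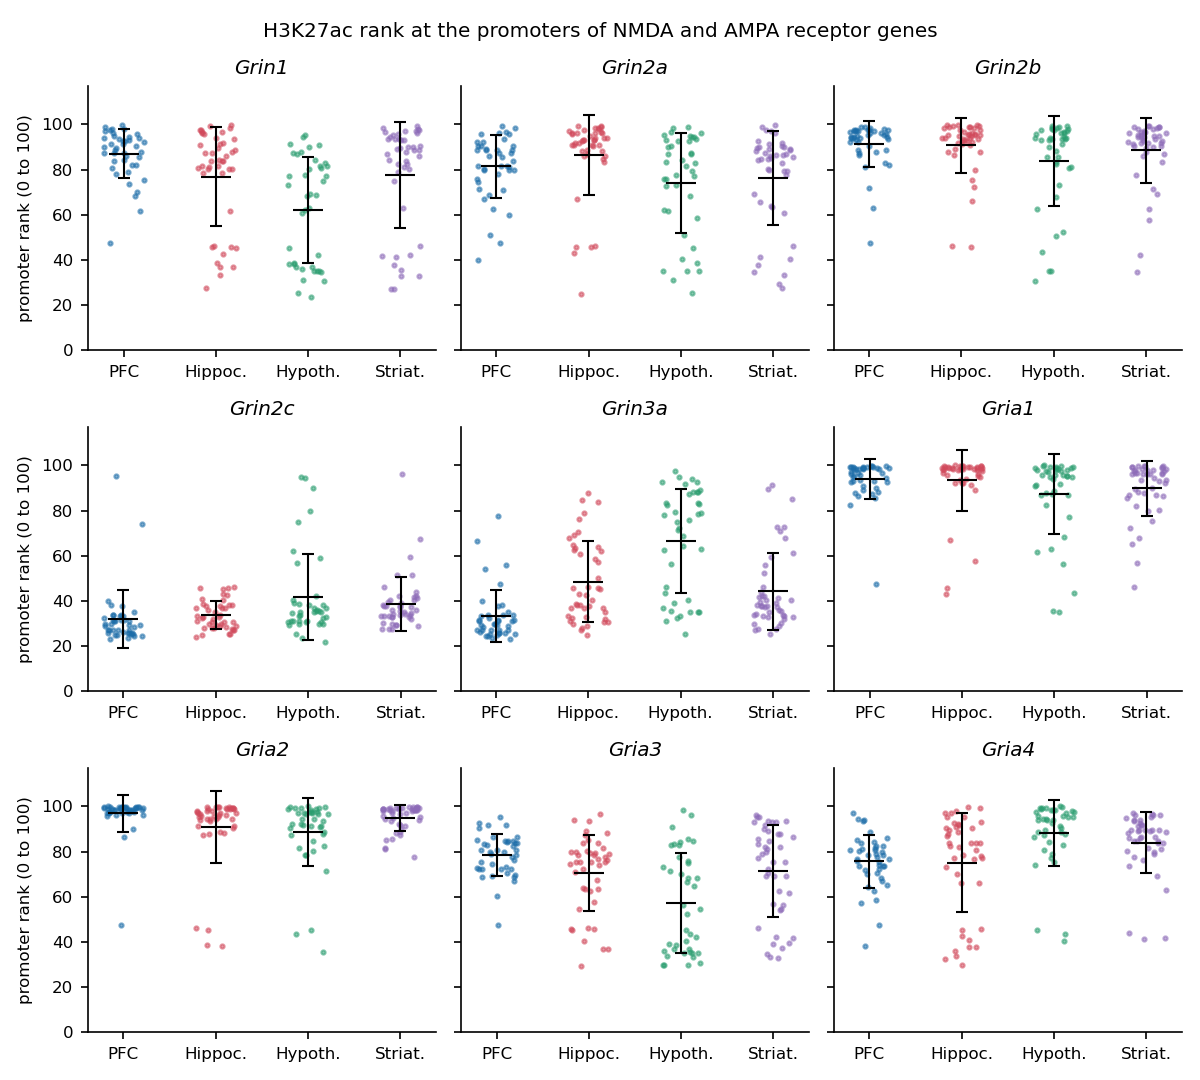
Promoter rank (0 to 100, vertical axis) of each of the 9 genes in each library, grouped by brain region, with the mean and SD. Gria2, Gria1 and Grin2b sit near the top in all 4 brain regions, Grin2c near the rank of unmarked genes, Grin3a is highest in hypothalamus (mean 66.6), and Grin1 runs from a mean of 87.0 in PFC to 62.2 in hypothalamus.

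Grin1 encodes the subunit that every NMDA receptor requires. Its promoter rank had a lowest, median and highest value of 47.6, 89.8 and 99.7 in PFC (mean 87.0 ± 10.8, SD, n = 42), 27.1, 88.7 and 99.2 in striatum (77.7 ± 23.5, n = 45), 27.8, 83.9 and 99.6 in hippocampus (76.9 ± 21.8, n = 44) and 23.8, 68.6 and 95.3 in hypothalamus (62.2 ± 23.4, n = 41). The brain regions overlapped throughout, and what separated the hypothalamus was the number of libraries near the bottom. Grin1 was called higher in PFC than in hypothalamus by 25.17 ranks (SE 4.38, limma adjusted p = 7.63e-07) and than in hippocampus by 11.03 (SE 4.31, adjusted p = 0.0212), and lower in hypothalamus than in hippocampus (difference 14.14, adjusted p = 0.0126) and striatum (-15.93, adjusted p = 0.00593). With top lists the difference between hippocampus and hypothalamus was 7.46 (adjusted p = 0.208) and no longer called. PFC and striatum (9.23, adjusted p = 0.0537) and hippocampus and striatum (-1.80, adjusted p = 0.775) were not called. A top-list peak was at the Grin1 promoter in 71.4% of PFC libraries (exact 95% interval 55.4% to 84.3%), 48.9% of striatum, 27.3% of hippocampus and 14.6% of hypothalamus libraries (5.57% to 29.2%).

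Among the GluN2 genes, Grin2b, which dominates early in life and stays on in the forebrain, was acetylated at its promoter in most libraries of all 4 brain regions: the median rank was 94.5, 94.5, 93.4 and 93.5 in PFC, hippocampus, hypothalamus and striatum. Its single call was PFC over hypothalamus (8.35, SE 3.05, adjusted p = 0.0126), and the largest difference without PFC was 6.52, hippocampus minus hypothalamus (adjusted p = 0.148). Grin2a, the GluN2 gene that rises after birth, had its highest mean in hippocampus, 86.6 ± 17.6 (lowest 25.1, median 92.8, highest 99.4), then PFC (81.4 ± 13.8), striatum (76.2 ± 20.9) and hypothalamus (74.0 ± 22.2, lowest 25.3, median 81.5, highest 98.8). Of the 6 pairs, hippocampus over hypothalamus was called (12.01, SE 3.86, adjusted p = 0.0186), and neighbouring brain regions in this order were not. Grin2c, best known from the cerebellum, had no top-list peak at its promoter in PFC (0 of 42 libraries, which allows a share of up to 7.14%) or hippocampus (0 of 44, up to 6.82%), and had 2 of 41 in hypothalamus and 1 of 45 in striatum. The Grin2c differences that passed the test, such as -9.28 for PFC against hypothalamus (adjusted p = 0.00416) and -8.06 for hippocampus against hypothalamus (adjusted p = 0.0248; -1.24 and adjusted p = 0.524 with top lists), were differences between ranks that mostly stood for no peak.

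Grin3a, the GluN3A gene, showed the steepest contrast of the NMDA genes. Its rank had a lowest, median and highest value of 25.3, 74.8 and 97.5 in hypothalamus, 25.1, 42.9 and 87.8 in hippocampus, 25.2, 38.0 and 91.4 in striatum, and 23.1, 29.8 and 77.4 in PFC. The hypothalamus had many libraries above the other brain regions' medians but overlapped each of them. It was called above PFC (PFC minus hypothalamus -32.99, SE 4.04, adjusted p = 3.96e-12), above striatum by 21.85 (SE 3.99, adjusted p = 1.05e-05) and above hippocampus (-18.41, SE 3.99, adjusted p = 0.00015). PFC was also called below hippocampus (-14.58, adjusted p = 0.00234) and striatum (-11.14, adjusted p = 0.0111), and hippocampus and striatum did not separate (3.45, adjusted p = 0.518). With top lists all 5 called differences were smaller, and hypothalamus against striatum (5.11, adjusted p = 0.278) and PFC against hippocampus (-3.03, adjusted p = 0.223) were no longer called. A peak of any strength lay at the Grin3a promoter in 70.7% of hypothalamus libraries and in 9.52% of PFC libraries.

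The AMPA genes Gria1 and Gria2, whose products form the most common AMPA receptor of forebrain neurons, were at or near the top of the ranking in all 4 brain regions. Gria2 ranks had a lowest, median and highest value of 47.6, 98.7 and 100 in PFC and 77.4, 98.1 and 99.7 in striatum, against 38.1, 96.3 and 99.9 in hippocampus and 35.5, 93.4 and 100 in hypothalamus. Gria2 was called higher in PFC than in hypothalamus (8.02, adjusted p = 0.0106) and hippocampus (6.05, adjusted p = 0.0424), and Gria1 higher in PFC than in hypothalamus (7.14, adjusted p = 0.0274). With top lists PFC against hippocampus was not called for Gria2 (adjusted p = 0.0577). PFC was then called above striatum for Gria1 (10.82, adjusted p = 0.0195) and Gria2 (9.31, adjusted p = 0.0406). Gria2 in PFC against hypothalamus rose to 17.74 (adjusted p = 7.95e-05). Every call of these 2 genes involved PFC, the brain region with its own library kit. By the full lists the largest differences without PFC were -6.07 for Gria2, hypothalamus minus striatum (adjusted p = 0.164), and 5.87 for Gria1, hippocampus minus hypothalamus (adjusted p = 0.192).

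Gria3, an X-linked gene, and Gria4, the AMPA gene of many interneurons and of brainstem and thalamic cells, ran in opposite directions across the hypothalamus. Gria3 ranks had a lowest, median and highest value of 29.8, 54.4 and 98.2 in hypothalamus against 47.6, 79.8 and 95.1 in PFC, 33.0, 77.2 and 96.1 in striatum and 29.2, 75.6 and 96.8 in hippocampus. Gria3 was called lower in hypothalamus than in PFC (difference 21.49, SE 4.02, adjusted p = 4.3e-06), striatum (-14.95, adjusted p = 0.0046) and hippocampus (13.24, adjusted p = 0.0103). None of these 3 calls held with top lists, where the differences were 4.79 (adjusted p = 0.238), -7.08 (adjusted p = 0.403) and -0.54 (adjusted p = 0.947). Gria4 ranks had a lowest, median and highest value of 40.4, 94.0 and 100 in hypothalamus, 41.2, 88.2 and 97.0 in striatum, 29.8, 83.2 and 99.8 in hippocampus and 38.3, 77.1 and 97.3 in PFC. Gria4 was called higher in hypothalamus than in hippocampus (-13.32 for hippocampus minus hypothalamus, SE 3.52, adjusted p = 0.00278) and PFC (-12.41, adjusted p = 0.00344), and higher in striatum than in PFC (-7.95, adjusted p = 0.0405). A top-list peak stood at the Gria4 promoter in 65.9% of hypothalamus libraries (49.4% to 79.9%), 37.8% of striatum, 25% of hippocampus and 21.4% of PFC libraries.

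Counted by pair of brain regions, PFC against hippocampus had 2 promoters called higher and 1 lower among the 9 genes, where 59.7% of all 21829 genes were called. PFC against hypothalamus had 5 higher and 3 lower (63.1% of all genes), PFC against striatum 0 and 3 (59.0%), hippocampus against hypothalamus 3 and 3 (14.7%), hippocampus against striatum 0 and 0 (11.4%), and hypothalamus against striatum 1 and 2 (9.26%). The large background shares with PFC include many genes without a peak, which share 1 tied rank that moves with the number of marked genes. Among the 11441 genes with a peak in at least 20% of libraries the background was 43.5%, 47.8%, 31.0%, 26.5%, 21.5% and 19.0% in the same order. Under that filter, which left Grin2c untested, 3, 7, 1, 5, 0 and 3 of the receptor genes were called. With top lists 2, 7, 5, 3, 0 and 1 of the 9 were called, against 67.3%, 67.6%, 59.9%, 49.6%, 3.68% and 3.34% of all genes. The share of receptor genes called between hippocampus and hypothalamus thus stood above that of all genes by the full lists and below it by top lists, and those of PFC against hippocampus and striatum stood below it by either. For the 1 pair with 0 calls, hippocampus against striatum, the largest difference was -8.86, at Gria4 (adjusted p = 0.0824). The same animals gave libraries of several brain regions in 60 of 72 cases, and with the animal as a block every count of promoter calls was the same.

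Gene bodies were ranked in the same way by the strongest peak inside the gene and outside its promoter windows. Grin2b, Grin2a and Gria1 held strong intragenic peaks in all 4 brain regions, with mean ranks of 96.8 to 98.2, 92.8 to 98.1 and 94.2 to 98.4. The 9 genes gave 1 higher and 0 lower call for PFC against hippocampus (21.6% of all genes called), 2 and 2 for PFC against hypothalamus (23.9%), 1 and 1 for PFC against striatum (40.6%), 4 and 3 for hippocampus against hypothalamus (22.9%), 3 and 2 for hippocampus against striatum (52.5%), and 1 and 1 for hypothalamus against striatum (12.8%). Of these differences without PFC, those of Gria4 had the smallest adjusted p and that of Grin3a between hippocampus and hypothalamus was the largest. The Gria4 gene body rank had a lowest, median and highest value of 33.1, 75.0 and 96.2 in hippocampus, 82.1, 91.2 and 97.3 in striatum and 36.7, 91.2 and 99.2 in hypothalamus. Hippocampus was called below striatum (-25.48, SE 2.80, adjusted p = 1.46e-14) and below hypothalamus (-23.92, SE 2.85, adjusted p = 1.14e-12). Inside Grin3a, hippocampus stood below hypothalamus (-30.55, SE 4.38, adjusted p = 2.24e-09) and below striatum (-15.09, adjusted p = 0.00402), and hypothalamus stood above striatum (15.46, adjusted p = 0.00659). With top lists the difference between hippocampus and striatum was -2.02 (adjusted p = 0.806) and not called. Inside Grin1 and Gria3 the hypothalamus stood below PFC (differences 21.35, adjusted p = 5.94e-05, and 22.74, adjusted p = 1.94e-08), but with top lists these were 0.79 (adjusted p = 0.78) and 5.23 (adjusted p = 0.26) and not called.

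The number of acetylated stretches along a gene also set the hippocampus apart at Grin2a and Gria1, whose strongest gene body peaks were called above those in hypothalamus by 5.09 (adjusted p = 0.00862) and 3.87 ranks (adjusted p = 0.0149). This measure, the number of top-list peaks inside the gene or within 1 kb of it, was chosen after the values had been seen. Grin2a, a gene of 428 kb, had a lowest, median and highest number of 0, 20 and 29 peaks in hippocampus, against 0, 4 and 11 in PFC, 0, 2 and 22 in hypothalamus and 0, 5 and 18 in striatum. The hippocampal median lay above the highest PFC and striatum libraries and below the highest hypothalamus library, and 1 hippocampal library had no peak. Gria1, of 319 kb, had 1, 17 and 33 peaks in hippocampus, against 0, 8 and 25 in PFC, 0, 6 and 22 in hypothalamus and 0, 6 and 29 in striatum. Grin2b, the longest gene at 460 kb, had medians of 11, 13, 12 and 12 in PFC, hippocampus, hypothalamus and striatum.

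**Figure D2:**
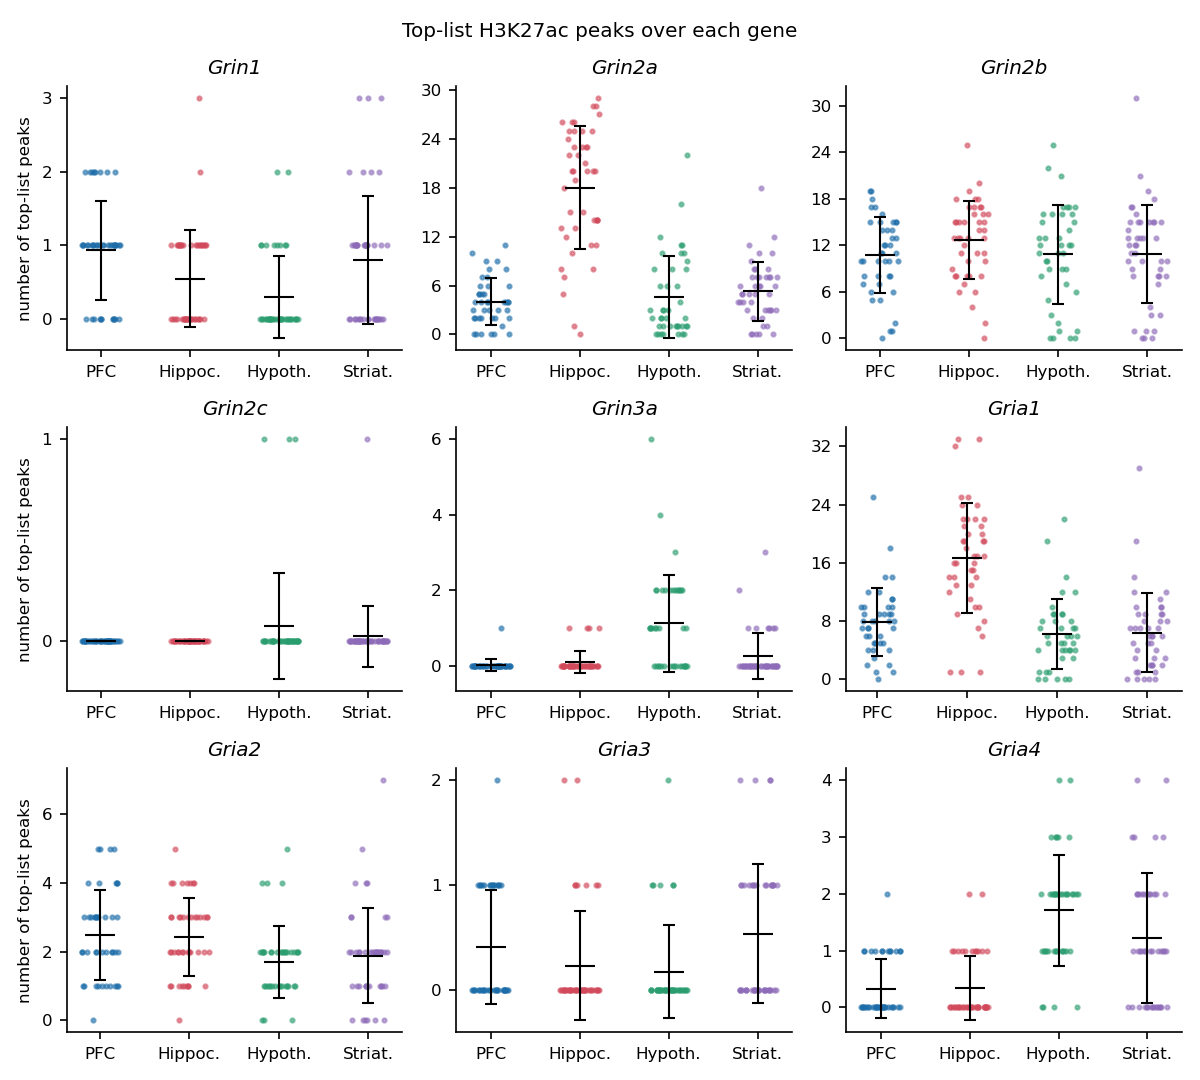
Number of top-list peaks (vertical axis, peaks per library) inside or within 1 kb of each gene, 1 point per library, grouped by brain region. Grin2a and Gria1 have medians of 20 and 17 peaks in hippocampus against 2 to 8 elsewhere, while Grin2b has 11 to 13 in every brain region.

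On the scale of log2(number + 1), Grin2a was called higher in hippocampus than in hypothalamus by 2.09 (SE 0.217, adjusted p = 2.55e-16), than in PFC (-1.91 for PFC minus hippocampus, adjusted p = 2.1e-14) and than in striatum by 1.56 (adjusted p = 1.24e-10). Gria1 was called higher in hippocampus than in hypothalamus by 1.42 (SE 0.217, adjusted p = 1.03e-08), striatum by 1.36 (adjusted p = 2.08e-08) and PFC (-0.94, adjusted p = 7.79e-05). Grin2b was not called in any of the 6 pairs, the largest difference being 0.41 between hippocampus and hypothalamus (SE 0.213, adjusted p = 0.125). Grin3a was called higher in hypothalamus than in each other brain region (differences -0.82, -0.76 and 0.62), and Gria4 higher in hypothalamus and in striatum than in PFC and hippocampus (differences of -0.64 to -1.01). These tests covered 7451 genes, and the shares called were 60.0%, 56.5% and 37.9% for PFC against hippocampus, hypothalamus and striatum, 36.7% and 35.2% for hippocampus against hypothalamus and striatum, and 25.9% for hypothalamus against striatum. Grin2c had too few peaks to be tested. The stretches covered by Grin2a top-list peaks averaged 21.1 kb in hippocampus against 3.01 to 4.75 kb elsewhere, and those of Gria1 21.2 kb against 3.76 to 11.2 kb, while the top lists as a whole covered 10.1 ± 5.19 Mb in hippocampus and 7.46 to 11.3 Mb elsewhere.

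The consensus lists showed the same genes from the side of position. Merged over the 4 lists, the 436 regions formed 168 loci, of which Grin2b held 59, Gria1 34, Grin2a 31, Gria4 15, Gria2 11, Grin3a 8, Gria3 6, Grin1 3 and Grin2c 1. The striatal list held 159 of them and 82 were in no other list, but its regions were also the least often occupied: for each gene with regions in it, the median striatal region had a peak in 17.8% to 44.4% of libraries, against 61.0% to 97.6% for the other lists. All 4 lists shared 26 loci, 13 of them in Grin2b, 7 in Grin2a, 4 in Gria1 and 2 in Gria2. Of the 7 loci in the hippocampal list alone, 6 belonged to Grin2a. Hippocampal regions covered 331 kb of Grin2a and its flanks, with 1 region of 66.5 kb, against 98.1, 39.8 and 107 kb in the PFC, hypothalamic and striatal lists. Grin1 and Gria3 had no region in the hypothalamic list, Gria4 none in the hippocampal, Grin3a none in the PFC and hippocampal, and Grin2c a single one, in the striatal list, 37.6 kb from its start site and beyond its end.

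Along Grin2b, the loci inside the gene at +269, +315 and +348 kb from the first start site and the locus at -66.2 kb, outside it, had a top-list peak in 58.5% to 97.7% of the libraries of every brain region. They stood beside the promoter locus (chr6:136168622-136175073), which had one in 63.4% to 88.1%. Within the same gene, the intronic locus at +161 kb (chr6:136007460-136017221) was at 63.4% in hypothalamus, 40.0% in striatum, 31.8% in hippocampus and 9.52% in PFC, and that at +378 kb (chr6:135787920-135802339) at 77.3% in hippocampus and 17.8% to 43.9% elsewhere. Grin2b thus had like peak numbers in the 4 brain regions but not the same loci.

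Loci with the widest gap for hippocampus were in Grin2a and Gria1. The intergenic Grin2a locus at -65.4 kb (chr16:10056327-10064314) had a top-list peak in 84.1% of hippocampal libraries and in 11.9%, 4.88% and 2.22% of PFC, hypothalamus and striatum libraries. The Grin2a locus at +217 kb (chr16:9744617-9811075), introns with an exon, was at 97.7% against 24.4% to 31.0%. In Gria1, the locus at +300 kb (chr11:57310149-57311679) was at 59.1% in hippocampus and at 0.0% in the other 3 brain regions, and that at +308 kb, near the end of the gene (chr11:57312097-57327454), at 93.2% in hippocampus, 73.8% in PFC, 28.9% in striatum and 22% in hypothalamus. The Gria1 locus at +266 kb (chr11:57270245-57283886) was shared by hippocampus (84.1%) and PFC (85.7%), with 48.9% in striatum and 17.1% in hypothalamus. In Gria2, the locus at +76.1 kb (chr3:80719019-80734491) was at 65.9% in hippocampus and 19.0% to 24.4% elsewhere. Gria4 had a striatal locus at +251 kb (chr9:4542562-4548335), with a peak in 28.9% of striatum, 7.14% of PFC and 0.0% of hippocampus and hypothalamus libraries. These shares describe the libraries and were not tested locus by locus.

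**Figure D3:**
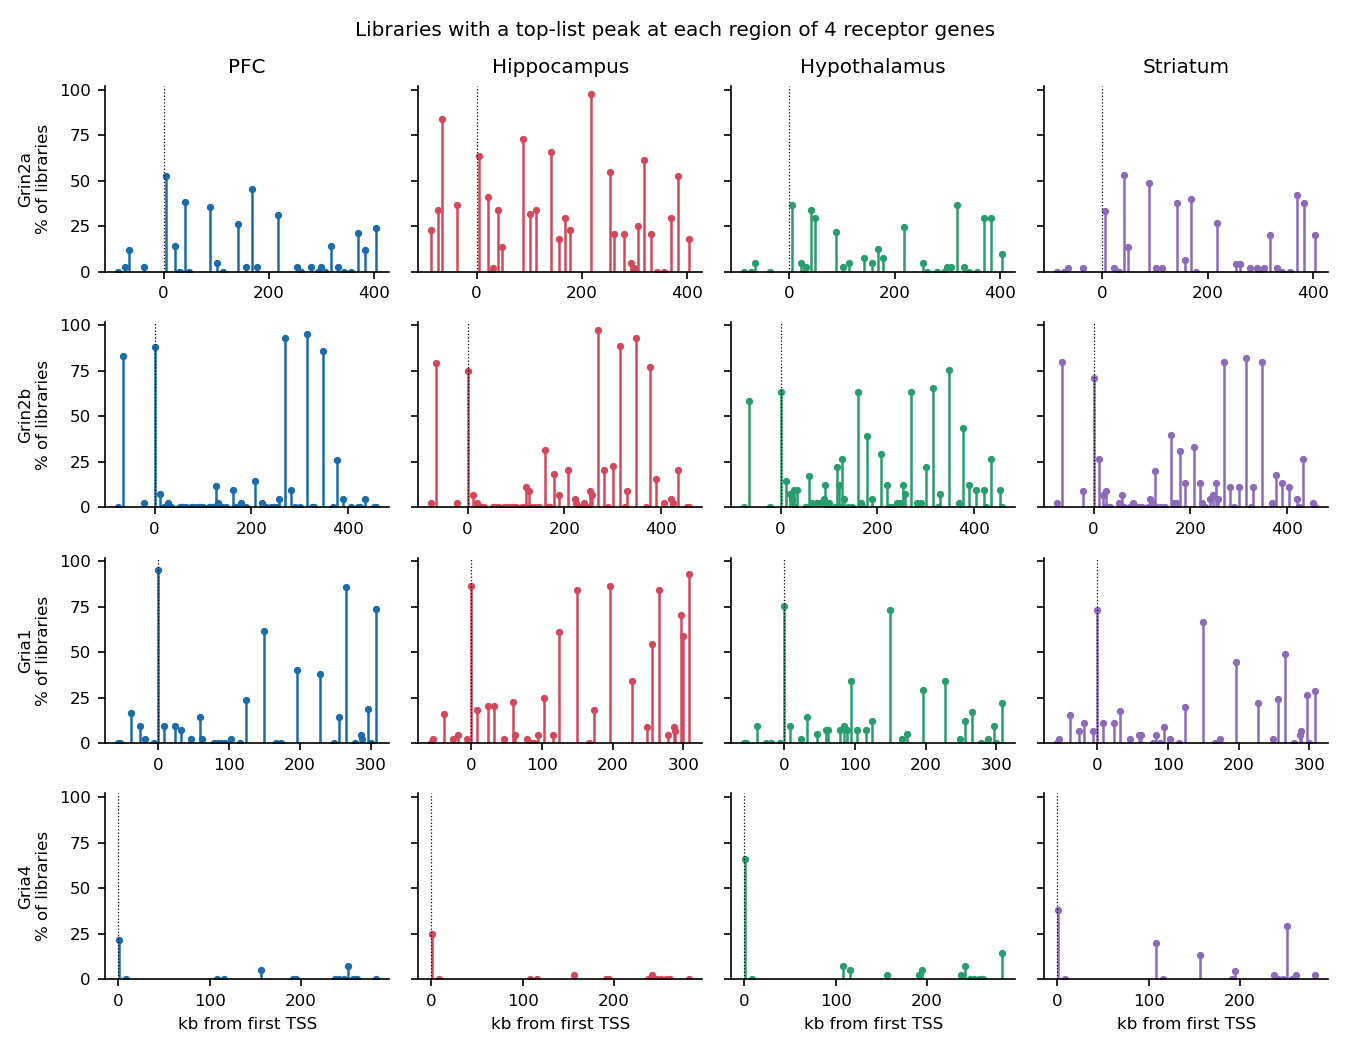
Share of libraries with a top-list peak (vertical axis, percent) at the merged loci of Grin2a, Grin2b, Gria1 and Gria4. The horizontal axis is the distance from each gene's first start site (kb), and each of the 4 brain regions has its own column and colour. Grin2a and Gria1 loci stand high in hippocampus (up to 97.7% of libraries), and the Grin2b loci at -66.2 kb and +269 to +348 kb in all 4 brain regions.

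The effects of perinatal morphine and of LPS were tested on the rank of each consensus region within its library, 0 to 100, in 1 limma fit per brain region with sex as a term. Across the 4 brain regions, 5 treatment contrasts and the contrast of the sexes, 2 of the 436 receptor regions were called, 1 in Gria1 and 1 in Grin3a. An exact occupancy test asked only whether a region held a top-list peak, so weaker peaks counted as absent. It called none of the 8100 to 12402 regions tested in each of the 16 treatment contrasts it covered. Only some receptor regions entered it: 15 to 21 of 87 in PFC and 28 to 39 of 79 in hippocampus. In hypothalamus 20 to 30 of 46 entered it, and in striatum 27 to 30 of 224. Of the receptor regions tested, 0 to 6 per contrast had an unadjusted p under 0.05. The regions of 1 gene are not independent of each other, and the contrasts share groups.

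In PFC, none of the 87 regions was called, and the background was 0.0% for all 5 treatment contrasts and 0.00547% between the sexes. For MOR-LPS against SAL-LPS, 5 regions had an unadjusted p under 0.05, with the smallest p at the Grin2b region at -68.4 kb (-16.42, adjusted p = 0.193), then Gria1 at +104 kb (17.98) and Grin2b at +339 kb (-12.94). MOR-SAL against SAL-SAL had 1 such region, Gria1 at +118 kb (15.27, adjusted p = 1.0), followed by the Grin1 promoter (-18.04) and Gria1 at +46.3 kb (-13.48). SAL-LPS against SAL-SAL had 6, led by 3 Gria1 introns at +46.3 kb (-22.24, adjusted p = 0.465), +160 kb (-28.75) and +59.0 kb (-28.41). MOR-LPS against MOR-SAL had 4, led by the same Gria1 intron at +160 kb (-23.66, adjusted p = 0.451), Grin2b at +179 kb (-17.93) and Gria1 at +32.3 kb (-16.84). The interaction of perinatal and adult treatment had 0, its smallest p being at Gria1 +59.0 kb (24.26, adjusted p = 0.752), Grin2b -68.4 kb (-15.77) and Grin2a +41.0 kb (-25.88). Between females and males 3 regions had an unadjusted p under 0.05, at Gria1 +184 kb (-16.56, adjusted p = 0.614), Grin2b +321 kb (-14.54) and Grin2b +432 kb (-12.47).

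In hippocampus, none of the 79 regions was called. The background was 0.0% for MOR-LPS against SAL-LPS, where 4 regions had an unadjusted p under 0.05, led by Grin2b at +255 kb (-24.64, adjusted p = 0.583), Gria1 at +266 kb (-18.37) and Grin2b at +241 kb (-18.67). It was 0.00617% for MOR-SAL against SAL-SAL, with 2 such regions and the smallest p at Grin2b +390 kb (20.23, adjusted p = 0.883), the Grin1 promoter (-21.23) and Grin2b +188 kb (17.71). SAL-LPS against SAL-SAL (0.0%) had 6, led by Grin2b at +255 kb (23.47, adjusted p = 0.364) and +126 kb (22.35) and by the Gria1 promoter (-15.55). MOR-LPS against MOR-SAL (0.0%) had 8, led by Gria1 at +266 kb (-23.81, adjusted p = 0.434), the intron shared with PFC above, and by Grin2b at +188 kb (-27.71) and +390 kb (-28.22). The interaction (0.00617%) had 5, at its smallest p Grin2b +255 kb (-33.16, adjusted p = 0.867), the Grin1 promoter (34.17) and Gria1 +266 kb (-22.36). Between the sexes (0.0%) there were 7, led by Gria2 at +77.9 kb (-16.75, adjusted p = 0.32), Grin2a at +88.4 kb (-16.98) and Gria1 at +173 kb (-18.48). In this order of contrasts, 5.06%, 2.53%, 7.59%, 10.1%, 6.33% and 8.86% of the 79 regions had an unadjusted p under 0.05. Over all regions the shares were 7.56%, 5.64%, 9.59%, 6.09%, 5.66% and 8.07%.

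In hypothalamus, 0 of 46 regions were called for MOR-LPS against SAL-LPS, where 4.31% of all regions were. The smallest p was at an intronic Grin2b region at +127 kb (chr6:136044486-136048416; -34.14, SE 11.2, adjusted p = 0.052), which was called with the number in the animals' names as a replicate block (-33.99, adjusted p = 0.0478, 4.87% of all regions called). With lists of equal length the region at +127 kb was not called (-34.47, adjusted p = 0.0753). By p it was followed by the Grin2b promoter (-26.12, adjusted p = 0.0986) and Gria4 at +241 kb (-21.20), and 5 regions had an unadjusted p under 0.05. On the scale of all genes, the Grin2b promoter window had a lowest, median and highest rank of 30.6, 74.4 and 99.0 in MOR-LPS. It had 73.0, 94.4 and 98.4 in SAL-LPS, 35.2, 93.4 and 99.5 in SAL-SAL and 43.7, 93.3 and 99.4 in MOR-SAL. All 4 groups overlapped. The median was lowest in MOR-LPS, but SAL-SAL and MOR-SAL also held low libraries. Females had 30.6, 83.1 and 99.5 and males 67.7, 94.4 and 99.4. MOR-LPS against MOR-SAL had 0 called (3.84%) and 8 with an unadjusted p under 0.05, led by Gria1 at +8.36 kb (25.88, adjusted p = 0.0633), Gria4 at +241 kb (-25.20) and the Grin2a promoter (-26.43). MOR-SAL against SAL-SAL had 0 called (0.0%) and 3 such regions, at Gria1 +8.36 kb (-25.06, adjusted p = 0.44) and Grin2a +324 kb (-23.98) and +369 kb (-25.17). SAL-LPS against SAL-SAL had 0 called (0.305%) and 4 such regions, led by 3 in Grin2a at +369 kb (-38.41, adjusted p = 0.121), +378 kb (-29.42) and +236 kb (-25.45). Between the sexes 0 were called (0.0218%) and 9 had an unadjusted p under 0.05, led by the Grin2b promoter (-25.98, adjusted p = 0.107), Grin2b at +381 kb (-25.64) and Grin2a at +324 kb (-21.19), all lower in females. In this order of contrasts, 10.9%, 17.4%, 6.52%, 8.7% and 19.6% of the 46 regions had an unadjusted p under 0.05. Over all regions the shares were 21.3%, 20.4%, 8.04%, 12.2% and 13.0%.

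The interaction in hypothalamus called 1 of the 46 regions, where 1.86% of all regions were called. It was an intronic Gria1 region 8.36 kb into the gene (chr11:57017844-57021646). Its rank had a lowest, median and highest value of 16.5, 35.4 and 60 in SAL-SAL (n = 8, 5 with a peak), 6.53, 16.5 and 32.4 in MOR-SAL (n = 12, 3 with a peak), 6.15, 16.0 and 57.7 in SAL-LPS (n = 11, 3 with a peak) and 5.98, 18.5 and 88.8 in MOR-LPS (n = 10, 7 with a peak). SAL-SAL had the highest median and MOR-LPS the 4 highest libraries, at 70.9 to 88.8, and all 4 groups overlapped. The effect of perinatal morphine under LPS exceeded that under saline by 43.59 ranks (SE 13.1, adjusted p = 0.0494). With lists of equal length it was 33.20 (adjusted p = 0.093), and the call was lost in 27 of 41 fits that each left out 1 library (36.99 to 48.29, adjusted p of 0.0176 to 0.106). MOR-LPS lists were longer, with a mean of 76526 peaks against 49653 to 52875 in the other groups. The MOR-LPS libraries at 88.8, 82.9, 75.8 and 70.9 had 28052, 52991, 119814 and 76762 peaks, and that with 135368 peaks stood at 16.9.

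In striatum, 0 of 224 regions were called for MOR-LPS against SAL-LPS, against 2.32% of all regions, and 39 had an unadjusted p under 0.05. The 3 of smallest p were Grin3a at +169 kb (23.45, adjusted p = 0.0509), Grin2b at +279 kb (-30.55, adjusted p = 0.051) and Gria3 at +104 kb (-28.96, adjusted p = 0.0568). MOR-LPS against MOR-SAL had 0 called (0.253%) and 41 such regions, led by Grin2b at +80.7 kb (-24.16, adjusted p = 0.0817) and +116 kb (-31.83) and Gria1 at +263 kb (-27.03). The interaction had 0 called (0.0167%) and 20 such regions, led by Gria2 at +105 kb (-39.39, adjusted p = 0.173) and Grin2b at +80.7 kb (-27.36) and +51.9 kb (-25.05). MOR-SAL against SAL-SAL had 0 called (0.00667%) and 10 such regions, led by Grin2b at +80.7 kb (19.32, adjusted p = 0.763) and +284 kb (19.08) and Gria1 at -56.2 kb (15.27), and SAL-LPS against SAL-SAL had 0 called (0.0%) and 12, led by Gria2 at +8.55 kb (-27.47, adjusted p = 0.964), Gria1 at -5.76 kb (25.07) and Gria4 at +257 kb (-15.71). In the contrast of the sexes, where 0.798% of all regions were called, 1 of the 224 was, in Grin3a, ahead of Gria1 at +288 kb (-23.30, adjusted p = 0.0528) and +27.4 kb (-20.39). In the treatment contrasts in this order, 17.4%, 18.3%, 8.93%, 4.46% and 5.36% of the 224 regions had an unadjusted p under 0.05. Over all regions the shares were 20.4%, 17.3%, 14.5%, 5.57% and 5.1%.

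**Figure D4:**
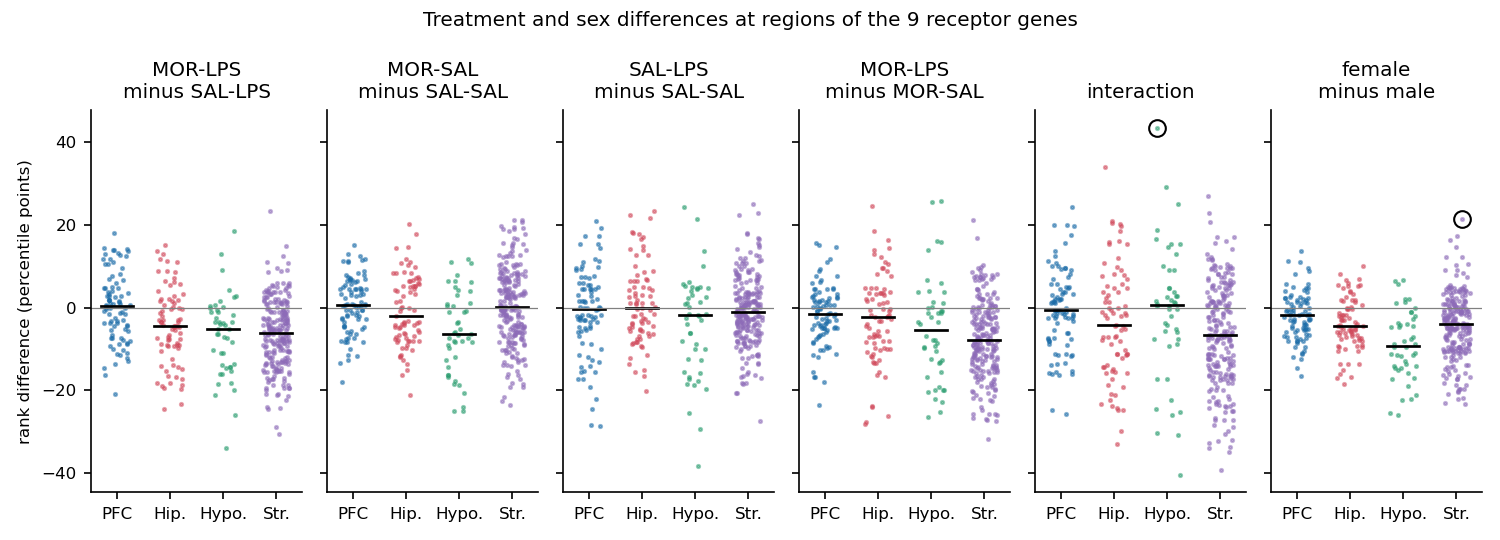
Rank differences (0 to 100 scale) of the receptor regions for each contrast in each brain region, with called regions marked. The medians lie below 0 for MOR-LPS against SAL-LPS in striatum (-6.06), hypothalamus (-5.24) and hippocampus (-4.48), and 2 regions in all were called.

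The called striatal region lay in an intron of Grin3a, 169 kb from the start site (chr4:49674029-49679652), and overlapped the end of Ppp3r2, the gene whose start site is nearest. Its rank had a lowest, median and highest value of 21.3, 81.6 and 95.7 in MOR-LPS females (n = 7, 6 with a peak), 13.3, 26.8 and 42.2 in MOR-LPS males (n = 8, 0 with a peak), 19.8, 29.1 and 75.4 in SAL-LPS females (n = 10, 1 with a peak) and 19.9, 30.6 and 92.4 in SAL-SAL females (n = 6, 1 with a peak). The 4 MOR-SAL females (25.3 to 36.4) and the 10 males of the other groups (18.0 to 37.7) had no peak there. The high libraries were 6 of the MOR-LPS females and 1 female each of SAL-LPS and SAL-SAL, and the sexes overlapped. Females exceeded males by 21.54 ranks (SE 5.73, adjusted p = 0.0459), and the call was lost in 24 of 45 fits that each left out 1 library (19.35 to 23.84, adjusted p of 0.0188 to 0.0877).

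Oligodendrocyte marker promoters moved with this region. In MOR-LPS females 8.33% to 100% of the 12 markers had a top-list peak (median 66.7%, all 12 seen in at least 1 library), against 0.0% to 50% in MOR-LPS males (median 0.0%, 6 of 12 seen). The MOR-LPS females with ranks of 95.7, 94.5, 88.4 and 81.6 at the Grin3a region had 91.7%, 100%, 91.7% and 66.7% of the markers, and the SAL-SAL female at 92.4 had 91.7%. The MOR-LPS female at 77.7 had 16.7%, and those at 57.6 and 21.3 had 8.33%. With astrocyte and oligodendrocyte shares as terms, the difference between the sexes was 8.02 ranks (adjusted p = 0.682), and with lists of equal length 9.74 (adjusted p = 0.528). In such libraries, more nuclei of another cell type and more acetylation per nucleus cannot be told apart.

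**Figure D5:**
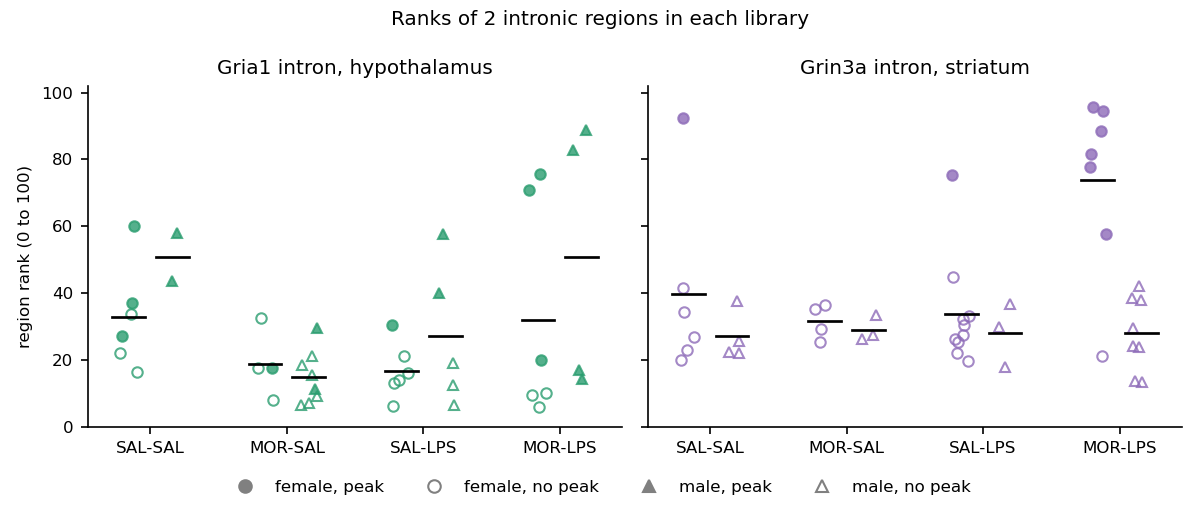
Rank (0 to 100) of the 2 called regions in each library, by treatment group and sex. At the hypothalamic Gria1 region the 4 highest libraries, 70.9 to 88.8, are MOR-LPS, and at the striatal Grin3a region 6 of 7 MOR-LPS females have a peak and 0 of 8 MOR-LPS males do.

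Below the threshold, the median difference of the receptor regions lay below that of all regions in several contrasts, with and without LPS. In striatum the median difference between MOR-LPS and SAL-LPS was -6.06 ranks over the 224 receptor regions, 75.9% of which were below 0, against -1.47 and 55.1% over all regions. Against MOR-SAL the median was -7.76, with 78.6% below 0 (all regions -0.96 and 53.3%). In hypothalamus the medians were -5.24 (78.3% below 0) and -5.38 (71.7%), against -0.34 and -0.29 over all regions, and in hippocampus -4.48 (68.4%) and -2.34 (60.8%), against 0.08 and -0.04. PFC had 0.28 (48.3%) and -1.47 (56.3%), against -0.47 and -0.09. Morphine without LPS gave a median as low in hypothalamus: MOR-SAL minus SAL-SAL had -6.33 (67.4% below 0, all regions 0.06), and the interaction there had 0.63 (45.7%, all regions -0.04). In striatum and hippocampus MOR-SAL minus SAL-SAL had 0.13 (49.6%) and -2.03 (55.7%), and the interaction -6.64 (65.6%) and -4.18 (63.3%), against -1.34 and 0.23 over all regions. Females lay below males in hypothalamus (median -9.21, 84.8% of 46 regions below 0) and also in hippocampus (-4.52, 73.4%), striatum (-3.88, 71.9%) and PFC (-1.87, 63.2%), where all regions had -0.10, -0.20, -0.66 and -0.10. Low medians were not particular to the receptor genes. Regions of the 57 other glutamate genes described below had -4.57 and -5.27 for hypothalamic MOR-LPS against SAL-LPS and MOR-SAL. In striatum they had -3.91 and -3.71, with -4.93 for the interaction, and in hippocampus -1.51 and 0.71. In hypothalamus they had 0.17 for MOR-SAL minus SAL-SAL, -4.74 for the interaction and -1.51 for females minus males. The shares with an unadjusted p under 0.05 were near or below those of all regions for MOR-LPS against SAL-LPS: 17.4% against 20.4% in striatum and 10.9% against 21.3% in hypothalamus. Striatal MOR-LPS libraries averaged 65739 peaks and 30% of oligodendrocyte markers, against 53490 and 6.41% in SAL-LPS, and 36.7% against 37.8% of neuronal markers. Hypothalamic MOR-LPS libraries had 38.3% of neuronal markers against 52.3% in SAL-LPS. The share was higher in hypothalamic MOR-SAL libraries (55.6%) than in SAL-SAL (44.8%), although that contrast also had a low median. Hypothalamic females had 41.3% of neuronal and 8.33% of oligodendrocyte markers, against 56.6% and 2.63% in males. The part of these shares in the medians was not tested.

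Other genes of glutamate transmission, 57 in all, were described beside the receptor genes. Their promoters gave 11 higher and 15 lower calls for PFC against hippocampus (45.6% of the 57, against 59.7% of all genes), 15 and 13 for PFC against hypothalamus (49.1% against 63.1%) and 9 and 6 for PFC against striatum (26.3% against 59.0%). Without PFC there were 12 and 9 for hippocampus against hypothalamus (36.8% against 14.7%) and 11 and 8 for hippocampus against striatum (33.3% against 11.4%). Hypothalamus against striatum had 7 and 4 (19.3% against 9.26%). Among the 11441 genes that passed the peak filter above, the background was 43.5%, 47.8%, 31.0%, 26.5%, 21.5% and 19.0% in the same order. The 57 genes were not filtered. Their share was near that background for hypothalamus against striatum. It stood above it for hippocampus against hypothalamus and against striatum, by less than with all genes. The vesicular glutamate transporters ran apart: Slc17a7 had a mean rank of 84.3 in hippocampus and 39.9 in hypothalamus (43.81, adjusted p = 3.37e-17), and Slc17a6 74.9 in hypothalamus and 46.5 in striatum (27.54, adjusted p = 8.52e-07). Grin2d, the GluN2 gene not among the 9, had 82.9 in hypothalamus against 44.0 in PFC (-38.03, adjusted p = 7.89e-13), 54.5 in hippocampus and 57.5 in striatum (24.16, adjusted p = 1.21e-05), the direction of Grin3a. The kainate receptor gene Grik4 had 41.1 in PFC and 74.6 in hippocampus (-33.24, adjusted p = 4.97e-11), and Grik3 63.6 in PFC and 41.3 in striatum (22.20, adjusted p = 1.1e-05).

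Regions of these 57 genes were called at shares near or below those of all regions in all but 1 of the contrasts with a call. In hypothalamus, 3 of 173 regions were called higher and 4 lower for MOR-LPS against SAL-LPS (4.05%, against 4.31% of all regions), led by Prkca (42.14, adjusted p = 0.00542), a protein kinase C gene, the transporter gene Slc17a6 (-35.97, adjusted p = 0.0177), the AMPA auxiliary subunit gene Cacng7 (39.11) and a second Prkca region (35.26). MOR-LPS against MOR-SAL had 2 higher and 4 lower (3.47% against 3.84%), led by Prkca (39.25), Prkcb (-43.78), Slc17a6 (-38.49) and Grin2d (-36.56). The interaction had 0 higher and 3 lower (1.73% against 1.86%), in Prkcb (-72.67, adjusted p = 0.0108), Adarb1 (-64.23), an RNA editing enzyme gene, and Grm7 (-60.37). SAL-LPS against SAL-SAL had 1 lower, in Grm7 (-40.90), which was 0.578% against 0.305%. With lists of equal length 1 of these 7, 2 of 6, 1 of 3 and 0 of 1 calls were kept in the same order: a Prkca region for MOR-LPS against SAL-LPS (adjusted p = 0.0497), a Prkcb and a Prkca region against MOR-SAL (adjusted p of 0.0207 and 0.0426), and the Prkcb region in the interaction (adjusted p = 0.0456).

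In striatum, 7 of 960 regions of the 57 genes were called higher and 6 lower for MOR-LPS against SAL-LPS (1.35%, against 2.32% of all regions), led by Prkca (32.12, adjusted p = 0.0307), Dlg2 (25.41) and Shisa9 (-22.39). Between the sexes 4 were higher and 2 lower (0.625% against 0.798%), led by Cacng3 (-25.87), Shisa9 (-20.64), Grik1 (20.74) and Slc1a1 (23.05). With lists of equal length 0 of these 13 and 0 of these 6 calls were kept, and 2 and 3 of all 60013 regions were called, and with astrocyte and oligodendrocyte shares as terms 0 and 6 of all regions were. PFC and hippocampus had 0 calls among 278 and 249 regions.

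Across the 172 libraries, the promoters most like those of the receptor genes were given by Pearson r, as a description over libraries that share depth and brain region. Grin2b was most like Myt1l (0.73), Plppr4 (0.70) and Atp2b2 (0.65), and Gria1 like Myt1l (0.68), Plppr5 (0.67) and Camk2a (0.63). Gria2 was most like Prkacb (0.68), Csrnp3 (0.67) and Atp6v0a1 (0.61), and Grin2a like Celf3, Sptbn4 and Brinp1 (each 0.57). Grin1 followed Nfil3 (0.52), Nsg1 (0.51) and 1700013F07Rik (0.51), and Grin3a Gprin2 (0.60), Pcbd1 (0.56) and Megf11 (0.55). Gria3 and Gria4 had no gene above 0.46, the nearest being Paxbp1 (0.45), Spata2l (0.45) and Spry2 (0.44) for Gria3 and Wdpcp (0.46), Mdh1 (0.46) and Plpbp (0.45) for Gria4. Grin2c, with few peaks, was nearest to Ppm1j (0.69), Slc16a9 (0.62) and Gm10272 (0.62). Among the receptor genes themselves, Grin2a and Grin2b (0.49) and Grin2b and Gria1 (0.48) were closest.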

How the data were processed

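H3K27ac was profiled by MOWChIP-seq, a microfluidic ChIP-seq for few nuclei. Per the labels and the study's methods, the authors trimmed reads (Trim Galore 0.6.7), aligned them to mm10 (Bowtie2 2.4.5), removed duplicates (SAMtools 1.15.1) and blacklisted regions, and ran MACS2 2.2.7.1 at q 0.05 on each library. The deposited peak lists give start, end and summit positions, a score, the fold enrichment (a ratio over local background), and the -log10 p and -log10 q. The authors also deposited 1 consensus list of positions per brain region, made with DiffBind 3.10.1. Read counts were not used here, so the authors' count model was not refitted, and 32 input libraries had no peak list.

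Here a region was scored by its strongest overlapping peak (by -log10 p, minimum overlap 1 bp) and turned into a percentile rank (0 to 100) within its library, since list lengths differed. limma 3.58.1 (R 4.3.3) with a mean-variance trend was fitted per brain region on treatment group and sex over all its regions, and over 21829 genes on brain region, treatment and sex, two-sided, with Benjamini-Hochberg adjustment per contrast and calls at an adjusted p under 0.05. Libraries under 10000 peaks were left out. The script was tested on simulated data. Gene models were GENCODE M21. Other software was Python 3.11.15, pandas 2.3.3, numpy 2.4.6 and scipy 1.17.1. Shares of libraries carry exact binomial intervals, which cover counting error only. The genes, lists and tests were chosen with earlier results of these data known. Named regions were those called, those at promoters, and the 3 of smallest p in each contrast without a call. Likeness named the 3 genes of highest r. The values of 1 gene that these rules pick are not reported here. The labels name no litter. The number before the hyphen of an animal's name was tried as a block, with 18 such numbers where the study's methods give more litters, and so was the animal.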

Additional observations from a re-analysis of the deposited data

Results flagged for a closer look

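The hypothalamic Gria1 region 8.36 kb into the gene was picked out because the effect of perinatal morphine differed between saline and LPS, by 43.59 ranks in the test of the difference itself. The perinatal effect was -25.06 ranks under saline (adjusted p = 0.44).

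At the striatal Grin3a region, the highest of the 10 SAL-SAL libraries, at 92.4, stood far from the others, with a gap to the next that was a large part of the group's range. Among the 2 called regions, 4 groups of 4 to 10 libraries were examined in this way, and chance picks out about 1 group in 20. That library had a top-list peak at 91.7% of the oligodendrocyte markers.

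The PFC library left out for its 4371 peaks had a peak at 1 of the 9 receptor promoters, that of Grin2a.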

How the results depend on the processing

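Recomputed rank differences of the regions named in the text kept their direction and side of the threshold in 659 cases, lost the call in 60, gained one in 11 and changed sign in 2. Most of the 659 were regions not called in the first place. All 60 losses fell on the 2 called regions, most of them on leaving out 1 library, where each call was lost more often than kept. Lists of equal length, peaks with -log10 q of at least 2, an overlap of 200 bp, no sex term, astrocyte and oligodendrocyte shares, and the library name style (added after seeing the data) each left 0 receptor regions for the hypothalamic interaction, with Gria1 at 33.20, 43.06, 43.27, 39.07, 44.25 and 43.38. Ranking by fold enrichment, -log10 q of at least 2, the log10 number of peaks, and the number in the animals' names as a replicate block each gave 1 call for hypothalamic MOR-LPS against SAL-LPS (Grin2b at +127 kb, with 4.30% to 4.94% of all regions called), and the number of peaks 1 for MOR-LPS against MOR-SAL (4.63%). Striatal MOR-LPS against SAL-LPS had 3, 2 and 3 calls by fold enrichment, with regions marked in at least 20% of libraries, and with the number of peaks as a term, where 2.76%, 3.34% and 3.37% of all regions were called. The striatal sex contrast had 2 under the last 2 of these (2.04% and 1.51%), and 0 with equal lengths or cell type shares. Grin3a was 9.74 with equal lengths, 19.89 with -log10 q of at least 2, and 8.02 with cell type shares. Equal lengths turned Grin2b at +284 kb and Gria1 at -56.2 kb (striatum, MOR-SAL against SAL-SAL) to -0.13. Leaving out 1 library at a time gave 36.99 to 48.29 for Gria1 and 19.35 to 23.84 for Grin3a.

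With top lists, promoter calls were 5 for PFC against striatum (59.9% of all genes called), 3 for hippocampus against hypothalamus (49.6%, Gria3 at -0.54) and 1 for hypothalamus against striatum (3.34%). Gene body calls were then 2 and 1 for PFC against hypothalamus and striatum (62.2% and 53.3%, Grin1 at -0.16), 4 and 3 for hippocampus against hypothalamus and striatum (9.35% and 9.46%), and 1 for hypothalamus against striatum (5.79%). The number of peaks as a term gave 4 promoter calls for PFC against hypothalamus (25.4%), 1 for hippocampus against striatum (14.2%), and 1 gene body call for PFC against striatum (6.53%). The 20% filter gave 1 promoter call for PFC against striatum (31.0%) and 2 gene body calls for PFC against hippocampus (46.7%), and a promoter window of 2 kb 1 for hippocampus against striatum (13.8%). Top lists of 20000 peaks gave 4 calls by peak number for PFC against striatum (Gria2 at 0.00). The cause of these shifts was not tested. The number in the animals' names had an estimated correlation of -0.0159 to 0.0336 within brain regions, and the animal of -0.0138 to 0.0391 between them, and the blocks changed no other count.

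Peak lists carry no read depth: a region without a peak has a signal under the authors' threshold and not a signal of 0, and no contrast tested the signal itself.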
